A study of Mus musculus with 9 samples.

Results

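The 10 genes described here encode secreted or membrane-bound growth factors that supply spermatogonial stem cells (SSCs) or the cells around them. They were chosen by name, with earlier results of these data known, as *Gdnf*, *Kitl*, *Lif*, *Csf1*, *Igf1*, *Nrg1*, *Fgf2*, *Fgf7*, *Hgf* and *Wnt5a*, out of 53801 genes in the count table. All 10 were among the 22452 genes that passed the filter on low counts. RNA-seq was performed on 9 libraries of a mouse SSC line derived from Prmt5 flox/flox; Rosa26-CreERT2 animals, in which every group had received 4-hydroxytamoxifen (4OHT) at 1 µM, so that the controls carry the deletion as well. 3 libraries carry the treatment label 4OHT, 3 the label MU and 3 the label OE. The methods describe knockout SSCs given a lentiviral catalytically dead PRMT5 or wild-type PRMT5, and MU and OE were read as these constructs, although the labels do not spell them out. The age of the animals and the number of lines are not given in the sources used here, and neither is whether libraries with one label came from separate cultures, so p-values measure only the spread between these libraries.

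In the testis, SSCs depend on a niche of somatic cells. Sertoli cells are the textbook source of GDNF, which signals through GFRA1 and RET to keep SSCs self-renewing, and of KIT ligand, which acts on KIT in differentiating spermatogonia. CSF1 and WNT5A are made by other somatic cells of the testis as well, and LIF, FGF2 and IGF1 are used to support germ cells in culture. In culture, fibroblast feeder cells take over part of this supply. In the culture methods, SSCs were plated on mitomycin C-treated mouse embryonic fibroblasts for the screen and on a feeder layer for the growth curves, and whether feeder cells were present in the cultures taken for RNA-seq is not stated.

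The libraries held 78751996 to 365719548 counts in total. Levels are given as CPM, the counts of a gene scaled to 1000000 counts of its library, scaled by TMM factors of 0.9402 to 1.035. A count of 3, taken as the limit of detection, equals 0.00792 to 0.0395 CPM, which covers counting error only. If 4 counts stand for 1 read pair, the limit is 0.0317 to 0.158 CPM. Every ligand gene lay above both limits in every library. *Prmt5* itself was at 28.19 to 31.94 CPM in 4OHT, 145.2 to 147.1 CPM in MU and 1071 to 1085 CPM in OE, lowest where the label names no construct. Defining markers of other cell types were checked by their summed CPM. The 14 germ cell markers, all at 1 CPM or more in each group, summed to 2793 to 2854 CPM in 4OHT, 3742 to 3840 in MU and 4003 to 4047 in OE, and were led by *Dazl*, *Uchl1* and *Ddx4*. Singly, 7 of them were called higher and 6 lower than in 4OHT, in MU and likewise in OE, with log2 fold changes down to -3.18 and -3.38 for *Etv5*. Of all genes tested, 29.5% and 29.9% were called higher in MU and OE than in 4OHT, and 26.5% and 27.9% lower. The 20 fibroblast markers, also all at 1 CPM or more in each group and led by *Fn1*, *Fbln2* and *Lox*, summed to 15680 to 18640, 8139 to 8176 and 6271 to 6401 CPM. The 12 macrophage markers, led by *Lyz2*, *Mpeg1* and *Laptm5*, summed to 178.6 to 194.2, 1170 to 1203 and 2265 to 2393 CPM. Sertoli, Leydig, myoid and endothelial markers were low in sum, at 17.57 to 28.04, 4.506 to 7.115, 63.11 to 127.7 and 13.15 to 17.71 CPM. The myoid sum averaged 66.25, 122.9 and 126.1 CPM in 4OHT, MU and OE, with 1 of 5 markers called higher and 3 lower than in 4OHT in both. Of 10 Sertoli, 6 Leydig, 5 myoid and 5 endothelial markers, 4, 1, 4 and 4 averaged 1 CPM or more in 4OHT, 3, 1, 3 and 4 in MU, and 4, 1, 3 and 4 in OE. Of 9 Sertoli markers tested, 3 were called higher and 2 lower than in 4OHT, in MU and likewise in OE. Of 5 endothelial markers, 1 was called higher and 2 lower in MU, and 1 higher and 1 lower in OE. The Sertoli marker *Fshr* and the Leydig markers *Hsd3b1* and *Lhcgr* had no count in any library, and the Leydig marker *Cyp17a1* stayed under 0.1 CPM. The Leydig marker *Cyp11a1* had no count in 4OHT and averaged 0.302 CPM in MU and 0.152 CPM in OE.

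All 10 ligand genes were lower in MU than in 4OHT and lower in OE than in 4OHT, and every one of them passed the test in both comparisons. These comparisons share the 4OHT libraries and are given side by side. *Lif* fell furthest, 10.01-fold in MU and 13.23-fold in OE, followed by *Csf1* and *Nrg1*, and *Igf1* fell least, 1.458-fold and 1.729-fold. Between the constructs, all 10 had a higher mean in MU than in OE, and 5 of them passed the test, namely *Kitl*, *Csf1*, *Nrg1*, *Fgf7* and *Wnt5a*. Each difference comes from the edgeR quasi-likelihood fit to all 9 libraries, with Benjamini-Hochberg adjustment over all genes tested and a threshold of 0.05.

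Against all genes tested, 26.5% were called lower in MU than in 4OHT and 27.9% lower in OE than in 4OHT, beside 10 of the 10 ligand genes in each case. Between MU and OE, 2.12% of all genes were called higher in MU, beside 5 of 10 ligand genes. The 10 genes were chosen with earlier results of these data known, so their excess over all genes is a description and not a test. All 10 ligand genes lay, without overlap, lower in each MU library than in any 4OHT library, and lower in each OE library too, where 30.1% and 30.0% of all genes did so. In 9 of the 10, all but *Igf1*, each MU library lay above each OE library, beside 13.0% of all genes. The median log2 fold change of the 10 ligand genes was -1.78 for MU against 4OHT, -2.27 for OE against 4OHT and 0.45 for MU against OE, while the medians over all genes tested were 0.043, 0.018 and 0.008. An exact permutation test of 3 libraries against 3 cannot give a two-sided p below 0.1, which is the value found for each ligand gene whose groups do not overlap. These are bulk cultures, so fewer cells of a type and less RNA per cell cannot be told apart.

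**Figure D1:**
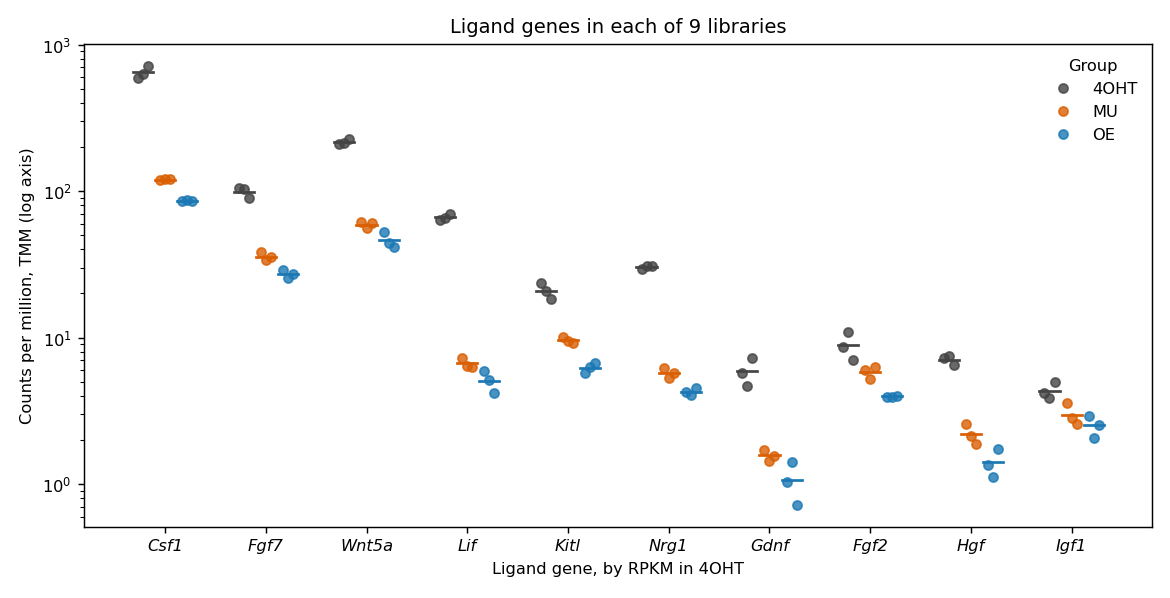
Each point is the TMM-scaled CPM of a ligand gene (log axis) in 1 of 9 libraries, with 3 libraries per group and a line at the group mean, and genes are ordered by RPKM in 4OHT. *Csf1* is the most abundant at 588.4 to 716.1 CPM in 4OHT, and for all 10 genes the 4OHT points lie above those of MU and OE.

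The 3 promoters shown here belong to *Lif* and *Csf1*, whose levels fell furthest, and to *Fgf7*, which was second to *Csf1* in level per length. RefSeq promoter windows on GRCm38.p6, of 250 bases before the RefSeq transcription start, were found for 8 of the 10 genes, *Nrg1* and *Wnt5a* excepted. Both strands were searched for 4 common promoter motifs, and capitals mark the matches. The letters searched were TGANTCA for the AP-1 motif, then GGGCGG for the GC box, then TATAAA for the TATA box, and the CCAAT box by the letters of its name. Each line reads 5′ to 3′ on the strand of its gene, and the *Lif* window ends before the annotated first exon.
Lif promoter, chr11:4257318-4257556, plus strand: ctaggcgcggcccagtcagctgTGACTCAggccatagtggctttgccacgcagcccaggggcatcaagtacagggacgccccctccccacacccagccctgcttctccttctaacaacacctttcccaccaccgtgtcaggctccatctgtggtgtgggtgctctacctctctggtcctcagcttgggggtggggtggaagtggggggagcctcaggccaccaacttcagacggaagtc
Csf1 promoter, chr3:107760470-107760719, minus strand: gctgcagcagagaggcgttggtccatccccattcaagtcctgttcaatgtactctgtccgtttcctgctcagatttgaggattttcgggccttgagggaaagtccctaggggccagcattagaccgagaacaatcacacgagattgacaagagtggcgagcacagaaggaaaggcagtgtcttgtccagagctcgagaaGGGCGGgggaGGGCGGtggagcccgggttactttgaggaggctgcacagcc
Fgf7 promoter, chr2:126034408-126034657, plus strand: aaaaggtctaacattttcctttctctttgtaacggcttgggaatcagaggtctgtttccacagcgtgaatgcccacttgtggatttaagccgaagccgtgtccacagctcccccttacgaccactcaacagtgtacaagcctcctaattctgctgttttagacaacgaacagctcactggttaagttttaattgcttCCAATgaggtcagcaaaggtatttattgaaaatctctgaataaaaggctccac
The *Lif* window holds 1 AP-1 motif, the *Csf1* window 2 GC boxes and the *Fgf7* window 1 CCAAT box, and none of these 3 windows holds the TATA box letters. Of all 32851 RefSeq promoter windows of this length, 6.75% hold the AP-1 motif, 32.7% the GC box, 12.4% the TATA box and 33.8% the CCAAT box. Among the 10 windows of the ligand genes (*Gdnf* and *Hgf* have 2 each), the AP-1 motif was also found for *Igf1*, the GC box for *Fgf2* and *Kitl*, the TATA box for *Kitl* and *Gdnf*, and the CCAAT box for *Igf1* and *Gdnf*. By GENCODE coordinates, the windows of *Igf1*, *Fgf2* and *Kitl* and 1 window each of *Gdnf* and *Hgf* end inside the annotated gene. They end 191 to 2881 bases past its start. The matches of *Igf1*, *Fgf2* and *Kitl* and the CCAAT box of *Gdnf* come from these windows. No motif was shared by all windows, and the matches are a description of letters only.

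*Csf1*, the ligand of the macrophage receptor CSF1R, was the most abundant of the 10. The gene (ENSMUSG00000014599) lies on the minus strand at chr3:107741048-107760469. Its levels were 588.4, 634.1 and 716.1 CPM in 4OHT, 119.0, 120.1 and 120.3 CPM in MU, and 85.93, 86.82 and 85.70 CPM in OE. The 3 groups are far apart, and the libraries of MU and of OE lie close together within their group. The log2 fold change was -2.43 ± 0.064 (SE) for MU against 4OHT (edgeR adjusted p = 2.93e-12) and -2.91 ± 0.065 for OE against 4OHT (adjusted p = 4.98e-13). MU was above OE by 0.48 ± 0.061 on the log2 scale (adjusted p = 0.000468). *Csf1* alone made up 56.2% to 60.8% of the summed CPM of the 10 genes in 4OHT, 46.5% to 49.5% in MU and 44.6% to 48.1% in OE, where that sum was 1046 to 1178, 242.5 to 255.8 and 178.9 to 192.8 CPM.

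*Lif* encodes a cytokine of the interleukin 6 family that signals through LIFR and IL6ST. The gene (ENSMUSG00000034394) lies on the plus strand at chr11:4257557-4272514. It stood at 63.77, 65.69 and 70.22 CPM in 4OHT, at 7.26, 6.37 and 6.33 CPM in MU and at 5.91, 5.13 and 4.19 CPM in OE. All MU and OE libraries lie far below 4OHT, and the lowest MU library is only slightly above the highest OE library. Against 4OHT, *Lif* changed by -3.32 ± 0.11 on the log2 scale in MU (edgeR adjusted p = 1.86e-11) and by -3.73 ± 0.11 in OE (adjusted p = 6.56e-12). The difference of 0.40 ± 0.11 between MU and OE did not pass the test (adjusted p = 0.0634), and was called in 5 of 15 alternative settings.

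*Gdnf*, the self-renewal factor of SSCs, was a low transcript here. The gene (ENSMUSG00000022144) lies on the plus strand at chr15:7810846-7837575. It was measured at 5.72, 4.65 and 7.30 CPM in 4OHT, 1.72, 1.44 and 1.54 CPM in MU, and 1.03, 1.42 and 0.72 CPM in OE. The 4OHT libraries are the highest, and the spread within 4OHT and within OE is wide for so low a level. It fell by 1.91 on the log2 scale in MU (SE 0.23, edgeR adjusted p = 7.45e-06) and by 2.49 in OE (SE 0.24, adjusted p = 8.14e-07). The difference between MU and OE, 0.58 ± 0.24, did not pass (adjusted p = 0.311), nor in any of 15 alternative settings, although the ranges do not overlap. GDNF protein in the culture medium is not seen by RNA-seq.

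*Kitl* encodes KIT ligand, also called stem cell factor. The gene (ENSMUSG00000019966) lies on the plus strand at chr10:100015630-100100416. Its levels were 23.56, 20.91 and 18.39 CPM in 4OHT, 10.06, 9.47 and 9.20 CPM in MU, and 5.75, 6.25 and 6.68 CPM in OE. The 3 groups form separate steps, with MU between 4OHT and OE. Log2 fold changes against 4OHT were -1.13 ± 0.10 for MU (edgeR adjusted p = 3.55e-07) and -1.75 ± 0.10 for OE (adjusted p = 5.26e-09). MU exceeded OE by 0.62 ± 0.10 (adjusted p = 0.00331), which was called in all 15 alternative settings planned, as was *Csf1*.

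*Nrg1* encodes neuregulin 1, a ligand of the ERBB receptors of the EGF receptor family. The gene (ENSMUSG00000062991) lies on the minus strand at chr8:31814551-32884029. It was at 29.36, 30.80 and 30.95 CPM in 4OHT, 6.22, 5.32 and 5.72 CPM in MU, and 4.24, 4.06 and 4.52 CPM in OE. Spread within each group is small beside the distance between 4OHT and the others. The log2 fold change was -2.40 ± 0.087 for MU (edgeR adjusted p = 5.4e-11) and -2.83 ± 0.090 for OE (adjusted p = 1.16e-11). MU was above OE by 0.42 ± 0.087 (adjusted p = 0.0143), a call lost without MU replicate 1, MU replicate 3, OE replicate 1 or OE replicate 2, with adjusted p up to 0.0856.

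*Wnt5a* encodes a ligand of non-canonical Wnt signalling that is received by ROR2 and Frizzled receptors. The gene (ENSMUSG00000021994) lies on the plus strand at chr14:28504750-28527448. Its libraries read 210.7, 214.5 and 225.9 CPM in 4OHT, 61.13, 55.96 and 60.27 CPM in MU, and 52.86, 44.51 and 41.65 CPM in OE. The nearest libraries of MU and OE differ by little, while 4OHT stands well above both. In log2 terms, *Wnt5a* changed by -1.88 ± 0.077 in MU (edgeR adjusted p = 1.57e-10) and by -2.23 ± 0.078 in OE (adjusted p = 2.75e-11). MU was above OE by 0.35 ± 0.075 (adjusted p = 0.0188), and this call was lost without MU replicate 1, MU replicate 3, OE replicate 2 or OE replicate 3, with adjusted p up to 0.103. The antisense gene *Gm2670* overlaps 3319 bases of *Wnt5a* and had means of 6.438, 1.031 and 0.7088 CPM in 4OHT, MU and OE. As the use of strand in counting is not stated, reads of the pair cannot be told apart in the overlap.

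The fibroblast growth factors differed among themselves. *Fgf7*, or keratinocyte growth factor, is made by mesenchymal cells and acts on epithelia through FGFR2, and its gene (ENSMUSG00000027208) lies on the plus strand at chr2:126034658-126091185. It was at 105.0, 102.9 and 90.25 CPM in 4OHT, 38.21, 33.69 and 35.41 CPM in MU, and 28.83, 25.33 and 27.20 CPM in OE. The 3 groups were separate, with MU nearer to OE. The log2 fold change was -1.47 ± 0.073 for MU (edgeR adjusted p = 9.51e-10), -1.87 ± 0.075 for OE (adjusted p = 9e-11) and 0.40 ± 0.073 for MU against OE (adjusted p = 0.00648). Without OE replicate 2 the last value became an adjusted p of 0.0525.

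*Fgf2*, basic fibroblast growth factor, is a usual supplement of SSC medium, and its gene (ENSMUSG00000037225) lies on the plus strand at chr3:37348346-37410108. It stood at 8.60, 10.99 and 7.07 CPM in 4OHT, 6.01, 5.22 and 6.32 CPM in MU, and 3.95, 3.92 and 4.01 CPM in OE. The lowest 4OHT library is close to the highest MU library, and the OE libraries are almost equal. Against 4OHT, the log2 fold change was -0.60 ± 0.15 for MU (edgeR adjusted p = 0.00279) and -1.17 ± 0.15 for OE (adjusted p = 1.26e-05). The MU to OE difference of 0.56 ± 0.15 missed the threshold (adjusted p = 0.0628) and passed in 6 of 15 alternative settings. The protein-coding gene *Nudt6* overlaps 5199 bases of *Fgf2* on the opposite strand, with means of 4.684, 3.729 and 4.460 CPM, so that reads in the overlap cannot be assigned with certainty.

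*Hgf*, hepatocyte growth factor, is a mesenchymal ligand of MET, and its gene (ENSMUSG00000028864) lies on the plus strand at chr5:16553495-16620152. It was at 7.25, 7.43 and 6.51 CPM in 4OHT, 2.58, 2.12 and 1.88 CPM in MU, and 1.35, 1.12 and 1.74 CPM in OE. MU replicate 3 and OE replicate 3 lie next to each other, while 4OHT is well apart. The log2 fold change was -1.69 ± 0.18 for MU (edgeR adjusted p = 1.7e-06) and -2.32 ± 0.18 for OE (adjusted p = 9.71e-08). The MU to OE difference had the largest estimate of the 10, 0.63 ± 0.18, and did not pass (adjusted p = 0.0892). It passed in 2 of 15 alternative settings.

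*Igf1*, insulin-like growth factor 1, is a survival and growth factor read by IGF1R, and its gene (ENSMUSG00000020053) lies on the plus strand at chr10:87858265-87937042. Its libraries were at 4.19, 3.86 and 4.97 CPM in 4OHT, 3.58, 2.80 and 2.56 CPM in MU, and 2.93, 2.07 and 2.54 CPM in OE. MU and OE overlap, and MU replicate 1 comes near the lowest 4OHT library. The log2 fold change was -0.54 ± 0.18 for MU (edgeR adjusted p = 0.0176) and -0.79 ± 0.18 for OE (adjusted p = 0.00183), and 0.25 ± 0.18 between MU and OE (adjusted p = 0.66). The call for MU against 4OHT was lost without 4OHT replicate 3, MU replicate 2 or MU replicate 3, with adjusted p up to 0.0752.

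**Figure D2:**
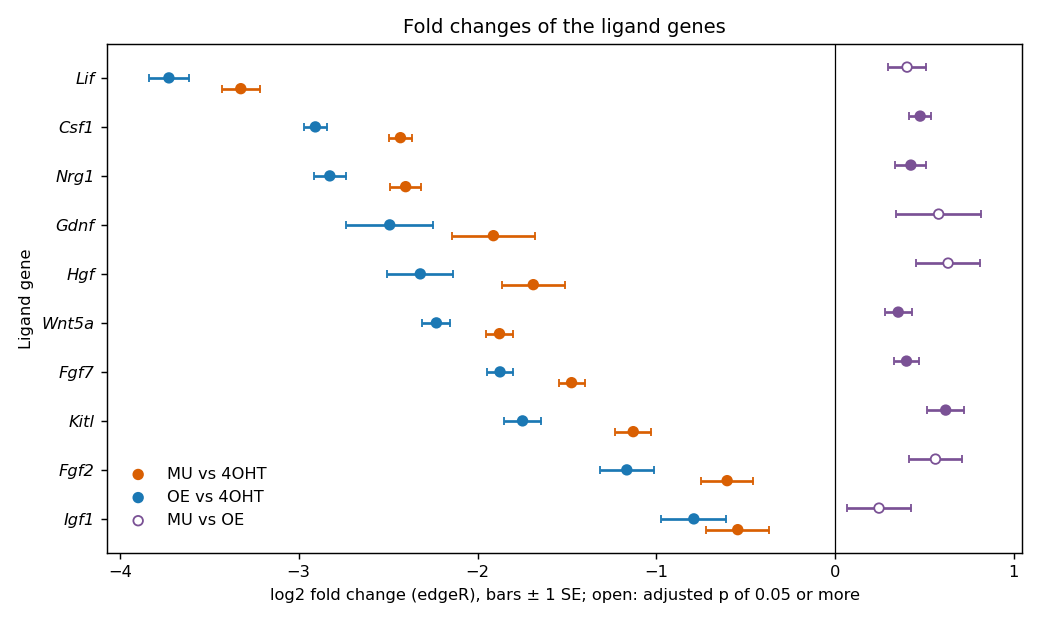
Points are edgeR log2 fold changes of the 10 ligand genes in the 3 comparisons, with bars of 1 SE, filled where the adjusted p is under 0.05. All values against 4OHT lie below 0, from -0.54 to -3.73, and all values of MU against OE lie above 0, from 0.25 to 0.63, with 5 filled.

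Levels can be set against each other only per length of transcript, as RPKM (CPM per kilobase of merged exons). In 4OHT the order was *Csf1* at 122.4 ± 12.26 (SD, n = 3), *Fgf7* at 30.6 ± 2.456, *Wnt5a* at 27.74 ± 1.016, *Lif* at 15.3 ± 0.7605, *Kitl* at 3.545 ± 0.4372 and *Nrg1* at 2.934 ± 0.08501 RPKM. *Gdnf* at 1.603 ± 0.3639, *Fgf2* at 1.311 ± 0.2914, *Hgf* at 0.983 ± 0.06763 and *Igf1* at 0.4383 ± 0.0578 RPKM came last. *Fgf7* and *Wnt5a* overlapped in this order, as did *Gdnf* and *Fgf2*. *Csf1*, *Fgf7* and *Wnt5a* also led in MU (22.68, 11.01 and 7.557 RPKM) and in OE (16.31, 8.35 and 5.923 RPKM). *Lif* was well above *Kitl* in 4OHT, whereas their ranges overlapped in MU (1.53 and 1.62 RPKM) and in OE (1.167 and 1.053 RPKM). *Fgf2* stood above *Nrg1* in MU (0.8627 and 0.5557 RPKM) and in OE (0.584 and 0.4131 RPKM), the reverse of 4OHT. *Hgf* and *Igf1* overlapped in MU, at 0.3052 and 0.3009 RPKM, and *Gdnf*, *Igf1* and *Hgf* overlapped with their neighbours in OE, at 0.2881, 0.2538 and 0.1953 RPKM.

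The fibroblast markers moved the same way as the ligand genes. Of the 20, 18 fell and 1 rose in MU against 4OHT, 20 fell in OE against 4OHT and 17 were higher in MU than in OE. On this same TMM scale, 26.5% of all genes fell and 29.5% rose in MU, 27.9% fell in OE, and 2.12% were higher in MU than in OE. The median log2 fold changes of the 20 markers were -1.03, -1.47 and 0.372. Their summed CPM was 2.088-fold higher in 4OHT than in MU, 2.694-fold higher in 4OHT than in OE and 1.29-fold higher in MU than in OE. To describe the ligand genes beside them, edgeR was run again with libraries scaled to the summed counts of these 20 markers, a setting chosen after the data had been seen. This scaling moved the median log2 fold change of all genes to 1.098, 1.44 and -0.3595 for MU against 4OHT, OE against 4OHT and MU against OE. On this scale 4.99% of all genes were called lower and 70.9% higher in MU than in 4OHT, 3.96% lower and 75.9% higher in OE than in 4OHT, and 0.526% higher and 48.0% lower in MU than in OE.

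Relative to the fibroblast markers, 7 of the 10 ligand genes were still called lower in MU than in 4OHT and 8 in OE. *Lif* fell most, by 2.26 and 2.29 on the log2 scale (SE 0.119 and 0.122, edgeR adjusted p = 3.95e-09 and 2.43e-09). Next came *Csf1*, at -1.37 and -1.48, and *Nrg1*, at -1.34 and -1.40, followed by *Gdnf* at -0.84 and -1.05, *Wnt5a* at -0.82 and -0.80, *Hgf* at -0.64 and -0.91 and *Fgf7* at -0.43 and -0.46, all past the threshold in both comparisons. These 7 genes therefore fell more than the marker sum did. Single markers ranged from -2.18 to 0.169 in MU and from -2.56 to -0.263 in OE on the scale of all counts, and *Lif*, *Csf1* and *Nrg1* lay below that range in both, while the other 7 ligand genes lay inside it. *Kitl* was at -0.08 in MU (adjusted p = 0.586) and at -0.34 in OE (adjusted p = 0.0396). *Igf1* turned to 0.52 in MU and 0.64 in OE (adjusted p = 0.0175 and 0.00564), and *Fgf2* to 0.44 in MU and 0.25 in OE (adjusted p = 0.0328 and 0.204), so for these genes the direction against 4OHT depends on the scale. Whether the ligand RNA came from fibroblasts was not tested.

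The difference between MU and OE did not hold on this scale. By edgeR 0 of the 10 ligand genes passed, 1 had an unadjusted p under 0.05 (*Csf1*, 0.11 ± 0.043, adjusted p = 0.0589), and the log2 fold changes ran from -0.12 for *Igf1* to 0.27 for *Hgf*. Only edgeR was run on this scale. The ratio of CPM to marker sum, expressed as CPM of the ligand per 1000 CPM of the markers, was 37.51, 37.79 and 38.41 for *Csf1* in 4OHT, 14.59, 14.76 and 14.71 in MU and 13.65, 13.84 and 13.39 in OE. Its 3 groups did not overlap, and the step from 4OHT was much larger than that between MU and OE. The same ratio for *Lif* was 4.066, 3.915 and 3.766 in 4OHT, 0.8905, 0.783 and 0.7741 in MU, and 0.9381, 0.8179 and 0.6547 in OE. Here MU and OE overlapped, and both stood far under 4OHT.

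**Figure D3:**
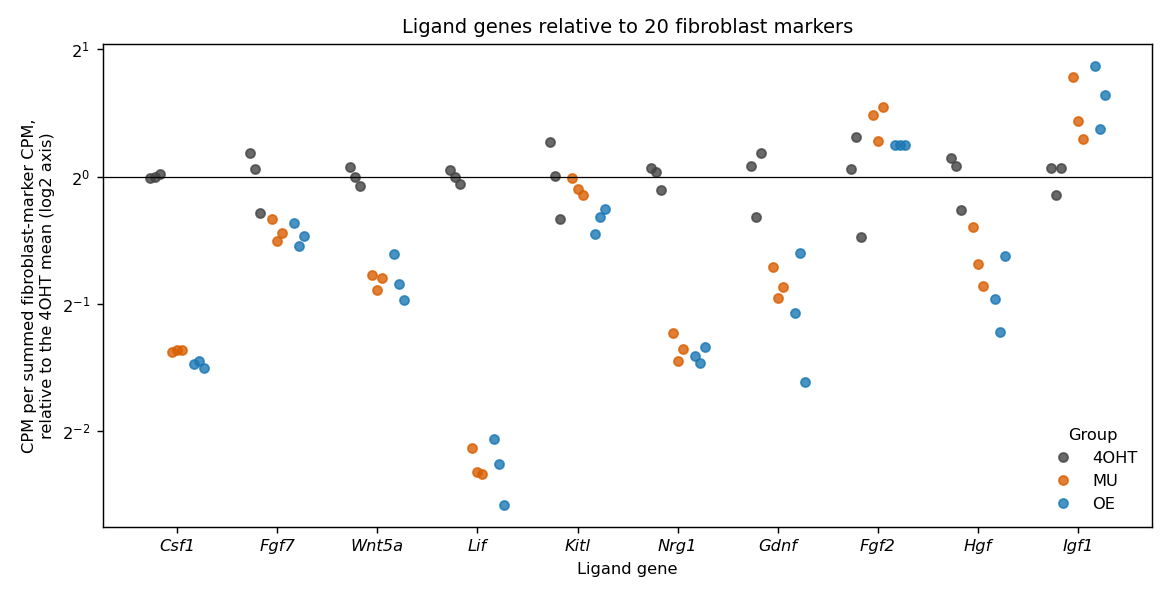
Points are the CPM of each ligand gene divided by the summed CPM of 20 fibroblast markers, relative to the 4OHT mean of that gene (log2 axis), for 9 libraries. *Lif* lies lowest in MU and OE, *Kitl* and *Fgf2* in MU and OE overlap with 4OHT, and *Igf1* lies above 4OHT, while MU and OE overlap for 7 of the 10 genes.

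The receptors of these ligands moved in both directions. Of 20 receptor genes, all tested, 11 rose and 6 fell in MU against 4OHT, and the same numbers held for OE against 4OHT. Of all genes, 29.5% and 29.9% were called higher in MU and OE than in 4OHT, and 26.5% and 27.9% lower. Between MU and OE, 6 of the 20 had an unadjusted edgeR p under 0.05. The share of all genes at that level is not given here. After adjustment, 1 receptor was called lower in MU, beside 1.06% of all genes, and 0 were called higher by edgeR. That receptor was *Csf1r*, itself one of the 12 macrophage markers, at means of 1.20, 8.13 and 20.4 CPM in 4OHT, MU and OE. Its log2 fold change was 2.75 ± 0.14 in MU and 4.08 ± 0.14 in OE against 4OHT (edgeR adjusted p = 1.16e-09 and 2.76e-11), and -1.33 ± 0.12 for MU against OE (adjusted p = 2.84e-05). *Csf1r* thus ran opposite to *Csf1* over the 3 groups. The macrophage list moved the same way: its 12 markers, *Csf1r* included, all rose in MU and in OE against 4OHT, and 10 of them, *Csf1r* included, were lower in MU than in OE. Their part in the levels of *Csf1r* was not tested.

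Both receptor subunits for GDNF, which are also among the germ cell markers listed, fell. *Gfra1*, the co-receptor, went from 120 ± 4.1 CPM (SD, n = 3) in 4OHT to 27.5 ± 0.79 in MU and 28.2 ± 0.72 in OE, log2 fold changes of -2.13 and -2.09 (edgeR adjusted p = 1.64e-12 and 1.34e-12). *Ret*, the tyrosine kinase that signals with it, went from 376 to 194 and 203 CPM. *Kit*, the receptor of KIT ligand and a mark of differentiating spermatogonia, rose from 16.3 ± 1.3 CPM to 81.0 ± 2.3 in MU and 81.7 ± 1.7 in OE, at 2.32 and 2.33 on the log2 scale, while *Kitl* fell in both. Between MU and OE, the estimates were -0.04 ± 0.051 for *Gfra1*, -0.06 ± 0.068 for *Ret* and -0.01 ± 0.059 for *Kit*, none of which passed the test.

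Among the FGF receptors, *Fgfr1* fell from 468 to 226 CPM in MU and 217 CPM in OE, whereas *Fgfr3* rose by 1.29 and 1.46 on the log2 scale and *Fgfr4* by 1.06 and 1.32. *Fgfr2*, the receptor of FGF7, was at 7.64, 6.60 and 7.14 CPM and did not pass (edgeR adjusted p = 0.101 and 0.449). *Ror2*, a receptor of WNT5A, fell by 1.78 and 1.97, and *Fzd2* and *Fzd5* fell by 0.71 and 0.33 in MU and by 0.87 and 0.41 in OE. *Ror1* and the co-receptor *Ryk* rose, by 0.86 and 0.14 in MU. The neuregulin receptors *Erbb2*, *Erbb3* and *Erbb4* rose by 0.41, 0.54 and 2.85 in MU and by 0.44, 0.70 and 3.13 in OE, where *Erbb4* was a low transcript at 0.152 CPM in 4OHT. *Met* rose by 0.33 and 0.45 and *Lifr* by 0.25 and 0.30. *Igf1r* and *Il6st*, at 250 and 287 CPM in 4OHT, were not called in any comparison.

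**Figure D4:**
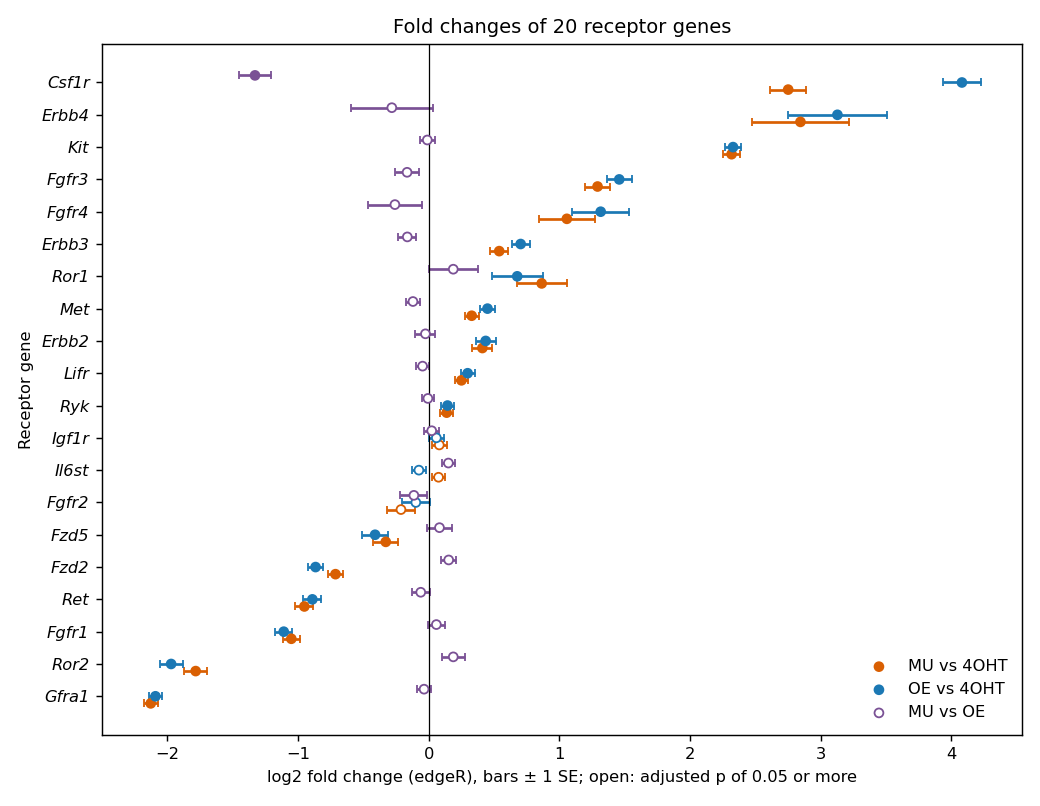
Points are edgeR log2 fold changes of 20 receptor genes in the 3 comparisons, with bars of 1 SE, filled where the adjusted p is under 0.05. 11 receptors rose and 6 fell against 4OHT in MU and in OE, from -2.13 for *Gfra1* to 4.08 for *Csf1r*, and *Csf1r* is the only filled point of MU against OE.

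Related ligands of the same families did not all follow the 10 genes. Of 67 listed, 66 were in the table (*Areg* was not matched) and 58 were tested. In MU against 4OHT 22 fell and 11 rose, in OE against 4OHT 25 fell and 10 rose, and 3 were higher in MU than in OE, namely *Ereg*, *Fgf10* and *Igf2*, which also are among those named by their high mean. Over all genes tested, 26.5% fell and 29.5% rose in MU, 27.9% fell and 29.9% rose in OE, and 2.12% were higher in MU than in OE. The median log2 fold changes of the 58 were -0.377, -0.589 and 0.154.

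Among EGF family ligands, 3 of the 8 tested fell and 2 rose in MU, and 4 fell and 1 rose in OE. Those same shares of all genes, 26.5% and 29.5% in MU and 27.9% and 29.9% in OE, stand beside these counts. Epiregulin (*Ereg*) fell from 97.3 to 19.8 and 15.1 CPM, log2 fold changes of -2.30 and -2.68, and MU was above OE by 0.38 ± 0.084 (edgeR adjusted p = 0.0236). *Hbegf* fell by 1.51 and 1.62, while *Nrg4* rose by 0.41 in MU and was at 0.24 in OE (adjusted p = 0.155). The insulin-like ligand *Igf2*, at 307, 161 and 130 CPM, fell by 0.93 and 1.24, and was 0.31 ± 0.051 higher in MU than in OE (adjusted p = 0.00358). *Ins1* and *Ins2* had no count in any library.

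Of 17 further FGF ligands tested, 7 fell and 4 rose in MU and 5 fell and 4 rose in OE. Beside these counts and those of the Wnt ligands, 26.5% of all genes fell and 29.5% rose in MU, and 27.9% fell and 29.9% rose in OE. *Fgf10*, a close relative of *Fgf7*, fell from 35.1 to 12.5 and 9.70 CPM, log2 fold changes of -1.49 and -1.86, with MU above OE by 0.37 ± 0.078 (edgeR adjusted p = 0.018). *Fgf13*, which is not secreted, rose by 1.48 and 1.59, and *Fgf9* was at 0.09 and 0.20 without passing. Of 17 other Wnt ligands, 4 fell and 3 rose in MU and 6 fell and 3 rose in OE. *Wnt3* fell by 0.36 and 0.27, *Wnt5b*, the closest relative of *Wnt5a*, rose by 0.59 and 0.55, and *Wnt2b* was at 0.01 and -0.17 and did not pass.

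In the interleukin 6 family, 4 of 7 ligands fell in MU and 5 in OE, beside 26.5% and 27.9% of all genes. *Clcf1* fell from 6.63 to 3.70 and 3.38 CPM, and *Ctf1* was at -0.29 in MU (edgeR adjusted p = 0.127) and fell by 0.45 in OE. *Il34*, the second ligand of CSF1R, fell from 2.66 to 0.895 and 0.580 CPM. *Csf3* was at 0.616, 0.21 and 0.0319 CPM, with 0, 3 and 10 counts in the OE libraries, and *Csf2*, at 0.255, 0.0318 and 0 CPM, was not tested. Of the 5 relatives of GDNF and KIT ligand, 2 rose and 1 fell in MU and likewise in OE. Of all genes, 29.5% and 29.9% rose and 26.5% and 27.9% fell. *Nrtn* rose by 0.61 and 0.69 and *Gdf15* by 1.09 and 1.14, and *Flt3l* was at -0.14 and -0.22 without passing. *Mst1*, the relative of HGF, was at 0.183, 0.0806 and 0.0293 CPM, and was called lower in OE (adjusted p = 0.0386).

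Of 17 genes tested that release or activate ligands, 6 rose and 9 fell in MU, and 6 rose and 10 fell in OE, beside the 29.5% and 29.9% of all genes that rose and the 26.5% and 27.9% that fell. *Adam17*, the sheddase of several EGF family ligands and of KIT ligand, rose by 0.29 and 0.32, *Spint2*, an inhibitor of HGF activation, rose by 0.63 and 0.64, and *Adam10* fell by 0.46 and 0.39. In this list 2 genes were higher in MU than in OE, beside 2.12% of all genes. Both are outside the rule for naming and were chosen after their values were seen. They were *Wls*, the carrier that brings Wnt proteins to the cell surface, at 219, 68.7 and 52.9 CPM (MU above OE by 0.38 ± 0.052, edgeR adjusted p = 0.000863), and *Bace1*, a protease that cleaves neuregulin, at 84.1, 33.9 and 26.2 CPM (0.37 ± 0.055, adjusted p = 0.00153).

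Of 21 genes for proteins that bind or hold these ligands, 6 rose and 11 fell in MU and likewise in OE, beside those same shares of all genes. The syndecan *Sdc4* rose from 807 CPM by 0.78 and 0.81, *Sdc1* fell by 0.41 and 0.49, and the Wnt antagonist *Sfrp1* rose by 1.00 and 1.04. In this list 3 genes were higher in MU than in OE, *Igfbp3*, *Gpc4* and *Igfbp7*, beside 2.12% of all genes. They also were chosen after their values were seen. *Igfbp3*, a carrier of IGF1, was highest in MU, at 26.1, 99.1 and 63.5 CPM in 4OHT, MU and OE, where MU exceeded OE by 0.64 ± 0.064 (edgeR adjusted p = 6.72e-05).

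For each ligand gene, the genes most alike over the 9 libraries were found among 15418 genes by the root mean square difference of log2 CPM, each centred on its own mean. The closest were *Trim2* and *Aif1l* for *Wnt5a* (0.0511 and 0.0533), *Cpe* and *Nrg1* for *Csf1* (0.0688 and 0.0925), *Lpar1* and *Timp1* for *Fgf7* (0.0695 and 0.0739), *Fam198b* and *Csf1* for *Nrg1* (0.0891 and 0.0925), and *Malat1* and *Gpx8* for *Kitl* (0.0982 and 0.102). *Csf1* and *Nrg1* were thus each among the closest genes of the other. The remaining members had looser neighbours, with *Mypopos* and *Mirg* for *Igf1* (0.118 and 0.126), *Dnm3os* and *Ctgf* for *Hgf* (0.137 and 0.159), *Ifitm3* and *Fkbp7* for *Fgf2* (0.147 and 0.160), *Etv5* and *Spry4* for *Lif* (0.169 and 0.179), and *Il11* and *Col15a1* for *Gdnf* (0.185 and 0.190). *Etv5*, a germ cell marker here, stood at means of 125.5, 13.8 and 12.06 CPM in 4OHT, MU and OE, beside 66.6, 6.66 and 5.08 CPM for *Lif*.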

How the data were processed

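RNA-seq was measured in 9 libraries, grouped by treatment label (4OHT, MU, OE; 3 each). The table the authors deposited gives raw counts, whole numbers for each gene. Per the labels, the submitters' processing notes name Trimmomatic 0.39, HISAT2 2.2.1 and StringTie 2.2.1 with GRCm38, and how counts became whole, and the use of strand, are not given in the sources used here. Since 4 counts may stand for 1 read pair, division of the counts by 4 was 1 alternative.

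Counts were analysed in R 4.3.3 with edgeR 4.0.16 (filterByExpr by group, minimum count 10 and total 15, TMM, quasi-likelihood fit of all 9 libraries, common biological coefficient of variation 0.155). Calls use a Benjamini-Hochberg adjusted p under 0.05. DESeq2 1.42.0 was an alternative, beside RLE factors, no filter, only the 6 libraries compared, a replicate block, leaving out each library, and scaling to fibroblast markers, which was added after the data had been seen. The edgeR steps were tested on simulated data. Lengths and coordinates came from GENCODE M21 (GRCm38), promoters from RefSeq (GRCm38.p6). The members and lists were chosen with earlier results of these data known. The text names all 10 ligand genes and their receptors, the 3 members of highest mean CPM of each other list and the 2 genes most alike to each ligand gene. The Sertoli, Leydig, myoid and endothelial lists are exceptions. Of the Sertoli and Leydig markers, only some of no or low level are named, which is outside this rule. A gene that the rule names is not reported here. Replicates differed by more than counting noise in every group. The authors' ethanol control is not analysed here.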

Additional observations from a re-analysis of the deposited data

How the results depend on the processing

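No ligand gene changed direction under the 15 alternatives planned. All 10 remained lower in OE than in 4OHT and past the threshold in every one, and in MU against 4OHT 147 of 150 values kept their call, the 3 exceptions being *Igf1* (9 of 10 genes called without 4OHT replicate 3, MU replicate 2 or MU replicate 3). For MU against OE, 128 of 150 values kept their side of the threshold, 13 gained a call and 9 lost one. There, 5 genes were called, 8 by DESeq2 and 2 to 7 when 1 library was left out: 2 without OE replicate 2, 3 without MU replicate 1 or MU replicate 3. Scaled to the summed fibroblast markers, 0 were called, and the value changed sign for *Igf1* (-0.12) and *Wnt5a* (-0.016) in MU against OE, for *Igf1* (0.52) and *Fgf2* (0.44) in MU against 4OHT, and for *Igf1* (0.64) and *Fgf2* (0.25) in OE against 4OHT. The markers' own fall, 2.088-fold and 2.694-fold, enters that scale by construction. Over all genes, MU against OE gave 712 calls, 1140 by DESeq2, 1565 with only the 6 libraries compared and 1099 without 4OHT replicate 3. It gave 400 to 487 calls when any 1 MU or OE library was left out. The cause was not tested. Same-numbered libraries did not deviate together (r = -0.0195 to 0.0443). No shared replicate effect was seen over all genes together, but one limited to some genes could be missed. These values also cannot show whether samples of one number were prepared together, which the labels do not say. With a replicate block 5, 10 and 10 genes were called. Of the 10 genes, *Gdnf* had the largest SE in each comparison (0.23 to 0.24).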
